A study of Mus musculus with 2 samples.

Results

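Mutations in a small set of genes cause cystic or tubulointerstitial kidney disease, and 9 of them were followed here among the 43346 gene rows measured: Pkd1, Pkd2, Pkhd1, Umod, Ift88, Kif3a, Ganab, Bicc1 and Glis2. They were chosen by name, as genes known for these diseases, with earlier results of these data known. All 9 were found by symbol in the annotation. The tissue was kidney from an adult female C57BL/6J mouse aged 10 weeks, an inbred strain, and the labels name no treatment, allele or second group. Its polyadenylated RNA was sequenced as 2 libraries of 1 tissue sample, labelled technical replicates 2 and 1 and called library 2 and library 1 here, and the work on technical replicate 2 is dated to May 2015. Library 2 held 20720537 expected counts, the estimated reads per gene, and library 1 held 28263730. With 1 library on each side, each test below compares these libraries and not conditions, covers counting error only and has no replicate check, and every SD is technical.

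Most of these proteins belong to the primary cilium, a sensory projection on the luminal face of tubule cells, or to the machinery that makes and delivers ciliary membrane proteins. Polycystin-1 and polycystin-2, the products of Pkd1 and Pkd2, form a receptor-like channel complex whose loss in humans causes autosomal dominant polycystic kidney disease, while loss of the Pkhd1 product causes the recessive form. Uromodulin, the product of Umod, stands apart from the cilium set: it is the most abundant protein of normal urine, is made in the thick ascending limb, and causes a dominant tubulointerstitial disease when it misfolds.

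Umod was by far the most abundant of the 9 transcripts, and Pkd1 the least abundant. Measured in TPM, which corrects counts for length and depth, Umod had 2636 in library 2 and 381 in library 1, and no other gene of the set reached 70 TPM in either library. Umod alone made up 89.6% of the summed TPM of the 9 genes in library 2 and 75.4% in library 1. By mean TPM the order was Umod, Pkd2, Bicc1, Ganab, Glis2, Pkhd1, Ift88, Kif3a and Pkd1. Only the steps between Umod and Pkd2 and between Pkhd1 and Ift88 separated neighbours whose values did not overlap between the libraries. Glis2 ranked 4 in library 2 and 8 in library 1, the widest move in rank. All 9 genes reached 1 TPM in library 2, and 8 did in library 1, Pkd1 being the exception.

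**Figure D1:**
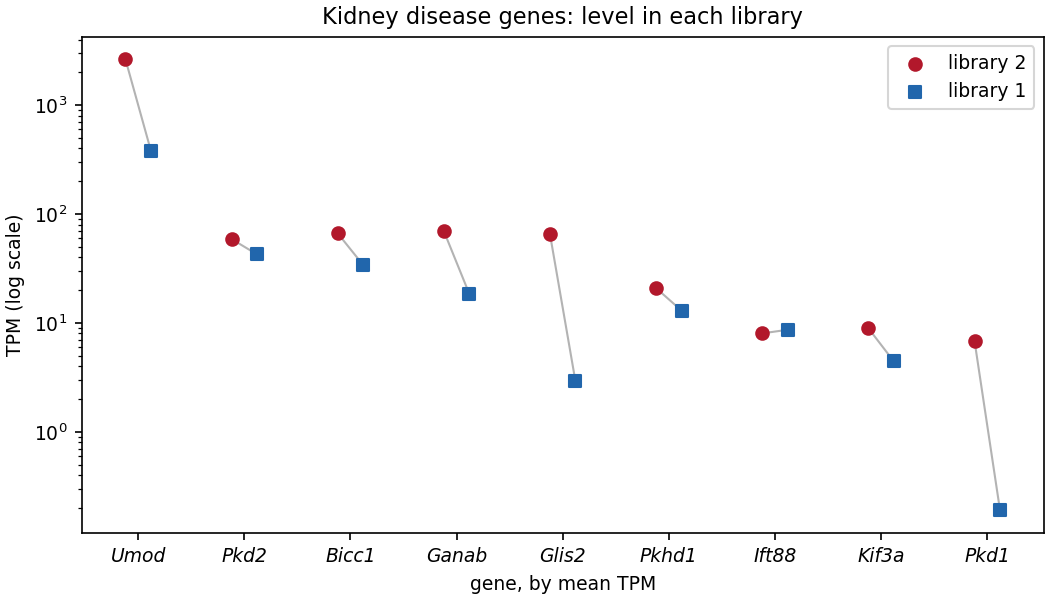
TPM (log scale) of each gene in library 2 (circles) and library 1 (squares), joined by a line, with genes in order of mean TPM. Umod stood above the rest in both libraries, and Glis2 and Pkd1 showed the steepest lines, Glis2 with 65.0 TPM in library 2 and 2.90 in library 1, and Pkd1 with 6.81 in library 2 and 0.19 in library 1.

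The tissue label was checked against marker genes. All 7 thick ascending limb markers, all 6 proximal tubule markers and all 5 podocyte markers reached 1 TPM in both libraries, led by Slc12a1, Napsa and Podxl, and 4 of 5 collecting duct markers did. The water channel gene Aqp2, the highest of these last, had 176 TPM in library 2, against 0.79 in library 1. All 6 adrenal markers (Star, Cyp21a1, Cyp11a1, Cyp11b1, Th and Dbh) and 4 of 5 skeletal muscle markers (Acta1, Ckm, Myh4 and Tnnt3, but not Mylpf) were under 1 TPM in both. Of 5 liver markers 3 reached 1 TPM in both libraries, 1 only in library 2, and 1 (Ahsg) in neither. Of 6 leukocyte markers 2 reached it in both, 2 only in library 2, and 2 (Cd3e and Cd79a) in neither. The highest of each list, Ttr and Lyz2, had 31.6 and 23.8 TPM in library 2, against 2.49 and 5.31 in library 1. Mitochondrial genes and their nuclear copies held 36.5% of TPM in library 2 and 74.5% in library 1, so a gene's TPM depends on how much of the library they left. With them left out, 4 of the 9 genes were higher in library 2 (Pkd1, Umod, Ganab and Glis2) and 5 were lower, against 8 higher and 1 lower in the TPM as deposited. Library ratios are therefore given on counts scaled by TMM, which sets the bulk of genes level. Dividing by total counts in its place raises every log2 ratio by 0.90.

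On the TMM scale the same 4 genes, Pkd1, Umod, Ganab and Glis2, were higher in library 2, and the other 5 lower, although Pkd2, Pkhd1, Kif3a and Bicc1 turn to the other side of 0 with total counts. A gene was called where a two-sided exact binomial test gave an adjusted p under 0.05 and the ratio was at least 2-fold. Of the 9 genes 4 were called, beside 60.5% of all 15553 genes tested. Pkd1, Glis2 and Umod were called higher in library 2, beside 35.5% of genes tested, and Ift88 was called higher in library 1, beside 24.9%. The shares of the 9 genes did not exceed the background in either direction. With total counts, 4 of the 9 were called, all higher in library 2 (Pkd1, Umod, Ganab and Glis2), beside 53.7% of all genes in either direction, 49.2% with the higher value in library 2 and 4.55% with the lower. With that scaling 91.5% of calls over all genes were higher in library 2 against 58.7% with TMM.

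The ratios of the 9 genes followed the base composition of their transcripts. Glis2 and Pkd1, at 57.8% and 56.8% G and C, had log2 ratios of 2.84 and 3.81, and Ift88, at 44.4%, had -1.49. Umod (51.5%) and Ganab (51.1%) lay between, at 1.43 and 0.55. Pkd2 (49.0%), Bicc1 (48.8%), Kif3a (47.6%) and Pkhd1 (47.4%) had ratios between -0.90 and -0.13. Across the 9 genes Spearman's rho of the log2 ratio with GC content was 0.867 and Pearson's r was 0.952 (n = 9 genes of the same 2 libraries, a description). The share of windows of 100 bases at 60% GC or more followed less closely, with a rho of 0.55. Stretches of coding sequence whose GC content is nearest to that of the whole transcript show the range in letters, from the GENCODE M21 transcripts on mm10, with G and C in capitals.
Pkd1: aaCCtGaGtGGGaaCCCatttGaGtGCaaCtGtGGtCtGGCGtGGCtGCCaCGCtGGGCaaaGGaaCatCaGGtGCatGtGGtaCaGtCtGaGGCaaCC
Glis2: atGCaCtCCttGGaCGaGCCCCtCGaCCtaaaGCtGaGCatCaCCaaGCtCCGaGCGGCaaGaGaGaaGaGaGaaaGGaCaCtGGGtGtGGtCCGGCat
Pkd2: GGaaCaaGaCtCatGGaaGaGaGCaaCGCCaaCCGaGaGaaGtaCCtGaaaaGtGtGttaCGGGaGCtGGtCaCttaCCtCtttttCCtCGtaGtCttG
Ift88: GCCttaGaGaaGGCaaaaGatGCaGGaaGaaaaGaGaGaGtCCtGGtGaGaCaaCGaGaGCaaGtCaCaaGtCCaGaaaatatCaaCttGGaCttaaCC
The Pkd1 stretch lies in exon 4 at chr17:24564580-24564678 and the Glis2 stretch in exon 2 at chr16:4608647-4608745, where it starts at the first coding base. The Pkd2 stretch lies in exon 2 at chr5:104466891-104466989 and the Ift88 stretch in exon 9 at chr14:57441878-57441976. All 4 are on the plus strand and 99 bases long, with a GC content of 56.6% in Pkd1, 57.6% in Glis2, 48.5% in Pkd2 and 44.4% in Ift88.

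**Figure D2:**
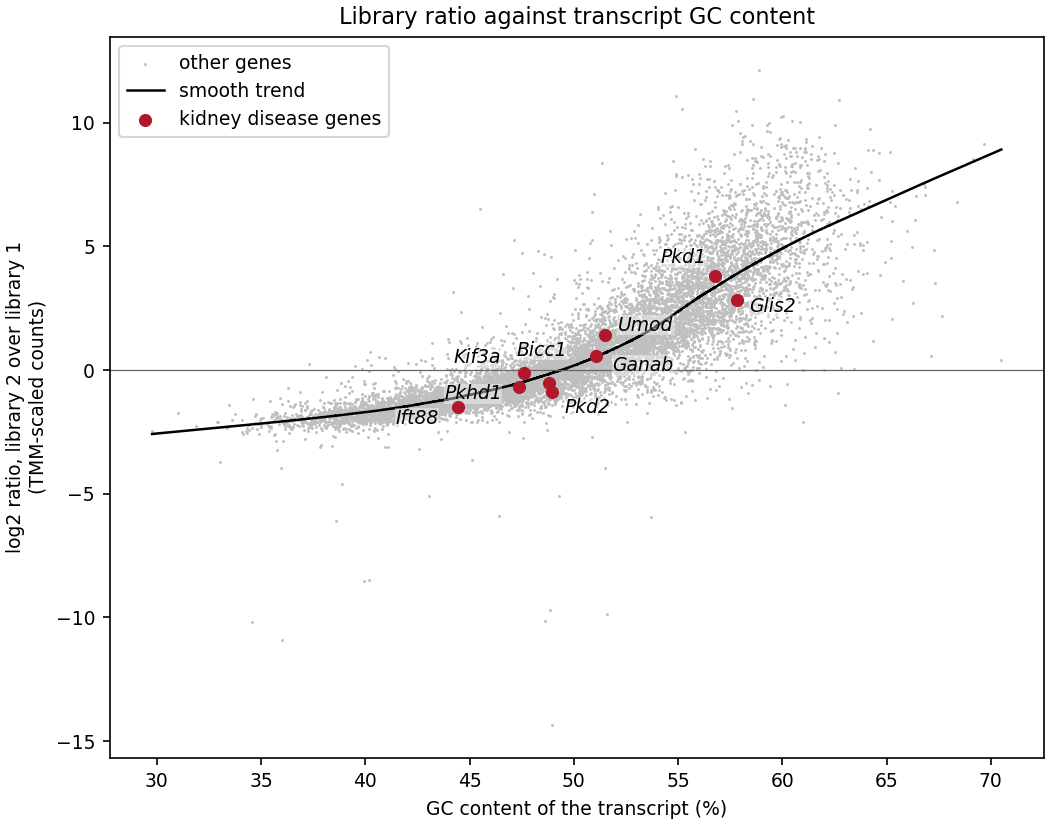
Log2 ratio of library 2 over library 1 on TMM-scaled counts against the GC content of the transcript, for the 9 kidney disease genes (red) and 11508 genes with at least 100 counts (grey), with the smooth trend over all of them (line). The 9 genes rise with the trend, Ift88 being the lowest of them and Pkd1 and Glis2 lying at its steep part. Relative to the trend Glis2 stood at -1.04, Pkd2 at -0.78 and Umod at 0.73, the widest distances of the 9.

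Across the whole table the median log2 ratio was higher in classes of higher GC content, with a spread of ratios within each class. Of the 9 genes 8 lay between the quartiles of their GC class, and Pkd2 lay just below them. Between 55% and 60% GC, 2242 genes had a median log2 ratio of 3.51 (quartiles 2.37 and 4.83), and Pkd1 and Glis2 fell inside this range. Below 45% GC, 2814 genes had a median of -1.47 (quartiles -1.76 and -1.17), with Ift88 inside. After a smooth trend on GC content, fitted over 11508 genes that include these 9, was taken off, the SD of the 9 log2 ratios was 0.582, against 1.80 before. The absolute ratio became smaller in 8 of the 9 genes and larger in Kif3a. Glis2 alone was then called, at -1.04 and so higher in library 1 (exact binomial test, adjusted p = 6.9e-27), beside 23.4% of genes called. Whether GC content acted on the libraries was not tested.

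Composition was uneven along the transcripts. Pkd2 had an average GC content of 49.0%, but 19.4% of its 100-base windows reached 60% GC, and the richest reached 86%. Its richest coding stretch lies in exon 1 at chr5:104459661-104459759 (plus strand, 85.9% GC) and is shown with G and C in capitals for contrast with the stretch from exon 2 above.
Pkd2 richest: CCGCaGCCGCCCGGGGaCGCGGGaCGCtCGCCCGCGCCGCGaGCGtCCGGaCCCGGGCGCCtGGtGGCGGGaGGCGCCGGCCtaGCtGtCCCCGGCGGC
In Glis2 34.3% of windows reached 60% GC and in Pkd1 25.9% did, against 2.58% in Ift88 and 0.693% in Pkhd1. Umod had 11.7%, Bicc1 9.83%, Kif3a 4.87% and Ganab 2.21%. Pkd2 held a larger share of such windows than Umod or Ganab, and its log2 ratio was -0.90, against 1.43 in Umod and 0.55 in Ganab.

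**Figure D3:**
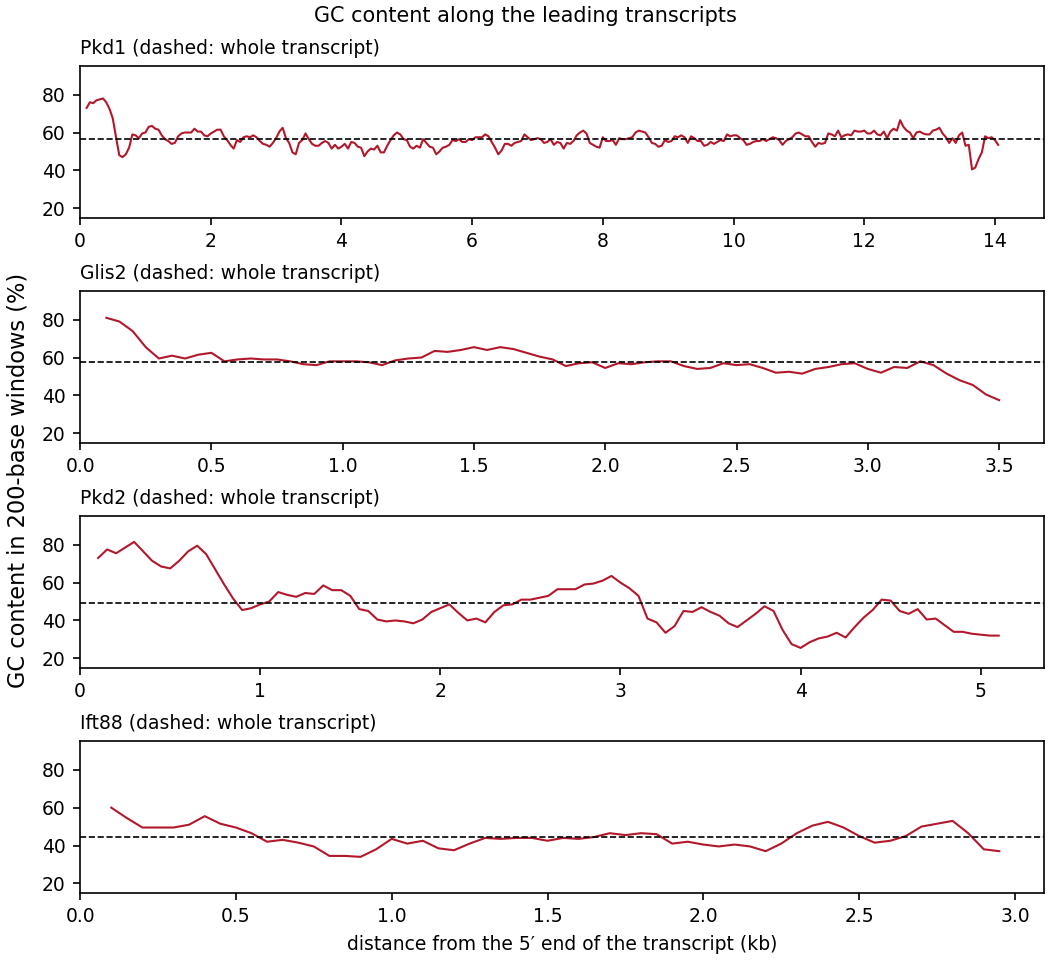
GC content in windows of 200 bases along the leading transcripts of Pkd1, Glis2, Pkd2 and Ift88, against the distance from the 5′ end; the dashed line is the whole transcript. Pkd1 and Glis2 stay near their averages of 56.8% and 57.8% over most of their length, Pkd2 starts high and then falls below its average of 49.0% over long stretches, and Ift88 stays low.

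Transcripts of the membrane proteins of polycystic disease stood in different proportions to each other in the 2 libraries. Pkd1 encodes the large receptor-like polycystin-1 and lies at chr17:24549834-24596508 on the plus strand, with 46 exons and a coding length of 12879 bases. It had 1568 counts in library 2 (95% Poisson interval 1491 to 1648) and 81 in library 1 (64.3 to 101). This was 6.81 TPM in library 2 and 0.19 in library 1 (mean 3.50 ± 4.68, SD, n = 2). Its log2 ratio was 3.81 (95% interval 3.50 to 4.16, exact binomial test, adjusted p = 1.18e-263), the highest of the 9. Pkd1 was above 79.6% of all gene rows, expressed or not, in library 2 and above 69.8% in library 1. Among genes at 1 TPM or more, with mitochondrial genes and copies left out, it was above 37% in library 2. In library 1 that share was 0%, since Pkd1 was itself under 1 TPM there.

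Its partner Pkd2, which encodes the cation channel polycystin-2, lies at chr5:104459450-104505819 on the plus strand, with 15 exons. Pkd2 had 4849 counts in library 2 and 6593 in library 1. This was 58.9 TPM in library 2 and 42.5 in library 1 (mean 50.7 ± 11.6, SD, n = 2). The log2 ratio was -0.90 (95% interval -0.95 to -0.85), short of the 2-fold limit although its adjusted p was 1.22e-240 by the exact binomial test, and with total counts it was 0.00. Pkd2 was thus the higher of the pair in both libraries, 8.65 times Pkd1 in library 2 and 224 times in library 1 in TPM. The proportion of the pair thus differed widely between libraries of the same tissue.

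Pkhd1 encodes fibrocystin, a large single-pass membrane protein found at the cilium, and spans chr1:20057779-20618064 on the minus strand with 67 exons in its leading transcript, the most of the set. It had 4346 counts in library 2 and 5062 in library 1. This was 20.9 TPM in library 2 and 12.9 in library 1 (mean 16.9 ± 5.60, SD, n = 2). The log2 ratio was -0.68 (95% interval -0.73 to -0.62), and 0.23 with total counts, and Pkhd1 was not called. In TPM it was 3.06 times Pkd1 in library 2 and 68.1 times in library 1. Relatives of these proteins (Pkd1l1, Pkd1l2, Pkd1l3, Pkdrej, Pkd2l1, Pkd2l2 and Pkhd1l1) were all under 1 TPM in both libraries. The highest, Pkd2l2, had 0.50 TPM in library 2, against 0.13 in library 1. Of the 2 with enough counts to test, Pkhd1l1 was called, with 6 counts in library 2 and 23 in library 1.

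Umod lies at chr7:119462711-119479282 on the minus strand, with 11 exons. It had 99011 counts in library 2 and 26794 in library 1. This was 2636 TPM in library 2 and 381 in library 1 (mean 1508 ± 1595, SD, n = 2). Umod stood above 99.9% of gene rows in library 2 and 99.8% in library 1. The log2 ratio was 1.43 (95% interval 1.41 to 1.45), with an adjusted p too small to be represented. Both libraries were made from the same tissue sample. As to the level itself, the number of thick ascending limb cells and the RNA per cell cannot be told apart in a bulk sample. Slc12a1, the sodium-potassium-chloride cotransporter gene of the same segment, had 568 TPM in library 2, against 400 in library 1, so that Umod was 4.64 times Slc12a1 in library 2 and 0.953 times in library 1. The order of these segment markers thus differed between the libraries. Against Egf, another gene of distal tubule segments, Umod stood at 3.66 times in library 2 and 1.75 times in library 1. Over the 7 thick ascending limb markers summed TPM was 1765 in library 2 and 836 in library 1. Of these markers 2 were called higher and 2 lower in library 2, beside 35.5% and 24.9% of all genes tested. The transcripts are 45.4% GC for Slc12a1, 49.6% for Egf and 51.5% for Umod.

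The other dominant tubulointerstitial disease genes on the list, among them Muc1, Ren1 and Sec61a1, were called higher in library 2, 4 of 4 beside 35.5% of all genes tested, with a median log2 ratio of 1.17 against 0.12 over all genes tested. Ren1, which encodes renin, had 91.4 TPM in library 2, against 0.51 in library 1. Sec61a1, a subunit of the translocon, had 53.0 TPM in library 2, against 19.1 in library 1. With the GC trend taken off, 1 of the 4 was called higher in library 2, Ren1 at 3.93, and 1 lower, beside 12.8% and 10.6% of all genes.

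Ganab encodes the catalytic subunit of glucosidase II, which trims sugars from new glycoproteins in the endoplasmic reticulum and is needed for polycystin-1 to mature. It lies at chr19:8898071-8916672 on the plus strand, with 25 exons. Ganab had 4208 counts in library 2 and 2091 in library 1. This was 69.6 TPM in library 2 and 18.5 in library 1 (mean 44.0 ± 36.2, SD, n = 2). The log2 ratio was 0.55 (95% interval 0.48 to 0.63), under the 2-fold limit, although with total counts it was 1.46 and passed. After the GC trend was taken off the ratio was 0.02. Ganab stood at 1.18 times Pkd2 in library 2 and 0.434 times in library 1, so the order of this pair turned round between the libraries. Prkcsh, the other subunit of glucosidase II, had 58.6 TPM in library 2, against 1.71 in library 1, and its transcript is 57.5% GC. Of 9 genes of endoplasmic reticulum glycosylation and translocation linked to cystic disease, 5 were called higher and 1 lower in library 2, beside 35.5% and 24.9% of all genes tested, with a median log2 ratio of 1.04. With the GC trend taken off, 1 of the 9 was called higher in library 2 (Alg5, at 1.01) and 1 lower (Mogs, at -1.34, against 3.52 before). The shares over all genes were then 12.8% and 10.6%. Sec61b, Dnajb11 and Sec63 had the highest mean TPM of the list, with 118, 57.5 and 41.3 TPM in library 2, against 22.4, 17.5 and 31.0 in library 1.

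Ift88 and Kif3a serve transport within the cilium. Ift88 encodes a subunit of intraflagellar transport complex B, which carries cargo towards the tip of the cilium, and its hypomorphic allele is the classic Oak Ridge polycystic kidney mouse. It lies at chr14:57424062-57517936 on the plus strand, with 26 exons. Ift88 had 342 counts in library 2 and 700 in library 1. This was 8.01 TPM in library 2 and 8.65 in library 1 (mean 8.33 ± 0.453, SD, n = 2), the closest levels of the 9. On TMM-scaled counts, however, it was the only one of the 9 called higher in library 1, at a log2 ratio of -1.49 (95% interval -1.68 to -1.30, exact binomial test, adjusted p = 9.2e-59). With total counts the ratio was -0.58 and with the GC trend taken off -0.38, and it was not called in either case.

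Kif3a encodes a motor subunit of kinesin-2, which drives that transport, and its loss in mouse tubules gives cysts. It lies at chr11:53567379-53601967 on the plus strand, with 18 exons in the transcript that leads by mean share. Kif3a had 384 counts in library 2 and 307 in library 1. This was 8.92 TPM in library 2 and 4.42 in library 1 (mean 6.67 ± 3.18, SD, n = 2). Its log2 ratio was -0.13 (95% interval -0.35 to 0.09, exact binomial test, adjusted p = 0.271), the only one of the 9 whose interval held 0, although with total counts it was 0.77 and with the GC trend taken off 0.34. In TPM Kif3a was 1.11 times Ift88 in library 2 and 0.511 times in library 1.

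The partners of Ift88 and Kif3a split in both directions. Of 16 other genes of complex B, 6 were called higher and 6 lower in library 2, beside 35.5% and 24.9% of all genes tested, with a median log2 ratio of -0.73, which total counts take above 0. Of 15 tested with the GC trend taken off, 2 were called higher in library 2 (Ift20 and Ift27) and none lower (exact binomial test). The shares over all genes were then 12.8% and 10.6%. Ift20, the highest by mean TPM, had 67.0 TPM in library 2, against 6.53 in library 1, whereas the values of Ift52 were 29.1 in library 2 and 28.7 in library 1 and those of Ift57 were 24.4 in library 2 and 20.9 in library 1. Complex A returns cargo to the cell body. Of its 6 genes listed, 3 were called higher and none lower in library 2 (exact binomial test), beside 35.5% and 24.9% of all genes tested. With the GC trend taken off none of the 6 was called, beside 23.4% of all genes. The highest by mean TPM, Ift122, Wdr35 and Ift43, had 15.5, 8.85 and 12.7 TPM in library 2, against 4.76, 6.14 and 2.11 in library 1. Among the other kinesin-2 genes, Kifap3 was called higher in library 1 and Kif3c higher in library 2, while Kif3b, the motor partner of Kif3a, had a log2 ratio of 0.01 (95% interval -0.13 to 0.15). Kif17 was under 1 TPM in both libraries.

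Bicc1 encodes an RNA-binding protein whose loss gives cystic kidneys in mice. It lies at chr10:70922832-71159700 on the minus strand, with 21 exons. Bicc1 had 5217 counts in library 2 and 5408 in library 1. This was 66.5 TPM in library 2 and 34.0 in library 1 (mean 50.2 ± 23.0, SD, n = 2). The log2 ratio was -0.51 (95% interval -0.56 to -0.45) and 0.40 with total counts, and Bicc1 was not called. Its partners Anks3 and Anks6 and the kinase gene Nek8 were called higher in library 2, and Nek7 higher in library 1. These calls, 3 and 1 of 4 genes, stood beside 35.5% and 24.9% of all genes tested. With the GC trend taken off, 1 of the 4 was called higher in library 2 (Anks3, at 1.36) and none lower. The shares over all genes were then 12.8% and 10.6%. Anks6 had 8.62 TPM in library 2, against 0.07 in library 1 on a transcript of 60.4% GC, while Nek7, at 39.0% GC, had 39.6 TPM in library 2, against 48.2 in library 1.

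Glis2 encodes a zinc finger transcription factor whose loss causes nephronophthisis, a recessive tubulointerstitial disease, in humans and mice. It lies at chr16:4594713-4624924 on the plus strand, with 7 exons, the fewest of the set. Glis2 had 3027 counts in library 2 and 307 in library 1. This was 65.0 TPM in library 2 and 2.90 in library 1 (mean 34.0 ± 43.9, SD, n = 2). The log2 ratio was 2.84 (95% interval 2.68 to 3.02), with an adjusted p too small to be represented, and it turned to -1.04 with the GC trend taken off. Bicc1 and Glis2 were level in library 2, at a TPM ratio of 1.02, and Bicc1 was 11.7 times Glis2 in library 1.

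Among relatives of Glis2, Glis3 had 16.8 TPM in library 2, against 7.85 in library 1, and was not called. Glis1, Gli1 and Sufu, the inhibitor of Gli factors, were called higher in library 2, Gli1 on 28 counts in library 2 and 2 in library 1. These were 3 of the 5 genes of this list tested, beside 35.5% of all genes tested, and none was called lower. With the GC trend taken off, none of the 3 then tested was called, beside 23.4% of all genes. Sufu had 17.2 TPM in library 2, against 1.44 in library 1, and Glis1 had 3.82 TPM in library 2, against 0.01 in library 1. The hedgehog effectors Gli1, Gli2 and Gli3 were under 1 TPM in both libraries. Of 22 nephronophthisis genes other than Glis2, 7 were called higher and 6 lower in library 2, beside 35.5% and 24.9% of all genes tested. Their median log2 ratio was -0.21, which total counts likewise take above 0. None of the 19 tested with the GC trend taken off was called (exact binomial test), beside 23.4% of all genes. Dcdc2a and Cep83 were among the highest by mean TPM, with 13.8 and 5.37 TPM in library 2, against 5.30 and 7.98 in library 1. Nphp4 and Zfp423 were under 1 TPM in both, and the 27 counts of Nphp4 in library 2 stood against 0 in library 1, at least 6.56-fold higher in library 2 with a floor of 3 counts in library 1.

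Over all 11 pathway lists, which hold 96 genes, 58 of the 89 tested were called, 34 higher and 24 lower in library 2, beside 60.5% of all genes called, 35.5% higher and 24.9% lower. With the GC trend taken off 11 of 80 were called, beside 23.4% of all genes. Of 13 Bardet-Biedl genes, which serve ciliary membrane traffic, 7 were called lower and none higher in library 2 (exact binomial test), beside 24.9% and 35.5% of all genes, with a median GC content of 44.8% and a median log2 ratio of -1.18, although with the GC trend taken off only Trim32 was called among the 12 then tested, higher in library 1. Mkks, Arl6 and Ttc8 had the highest mean TPM, with 24.3, 24.5 and 13.1 TPM in library 2, against 41.3, 25.2 and 10.8 in library 1. Of 12 other cyst-causing genes 7 were called higher and 1 lower in library 2, beside 35.5% and 24.9% of all genes. Taking off the GC trend left 2 called higher in library 2, Cys1 and Lrp5, and 2 lower, among them Col4a1 at -1.30 against 2.53 before. Col4a1 and Cys1 were among the highest by mean TPM, and Col4a1 had 54.7 TPM in library 2, against 3.67 in library 1. Cys1, the gene of the cpk mouse, had 27.7 TPM in library 2, against 2.67 in library 1.

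**Figure D4:**
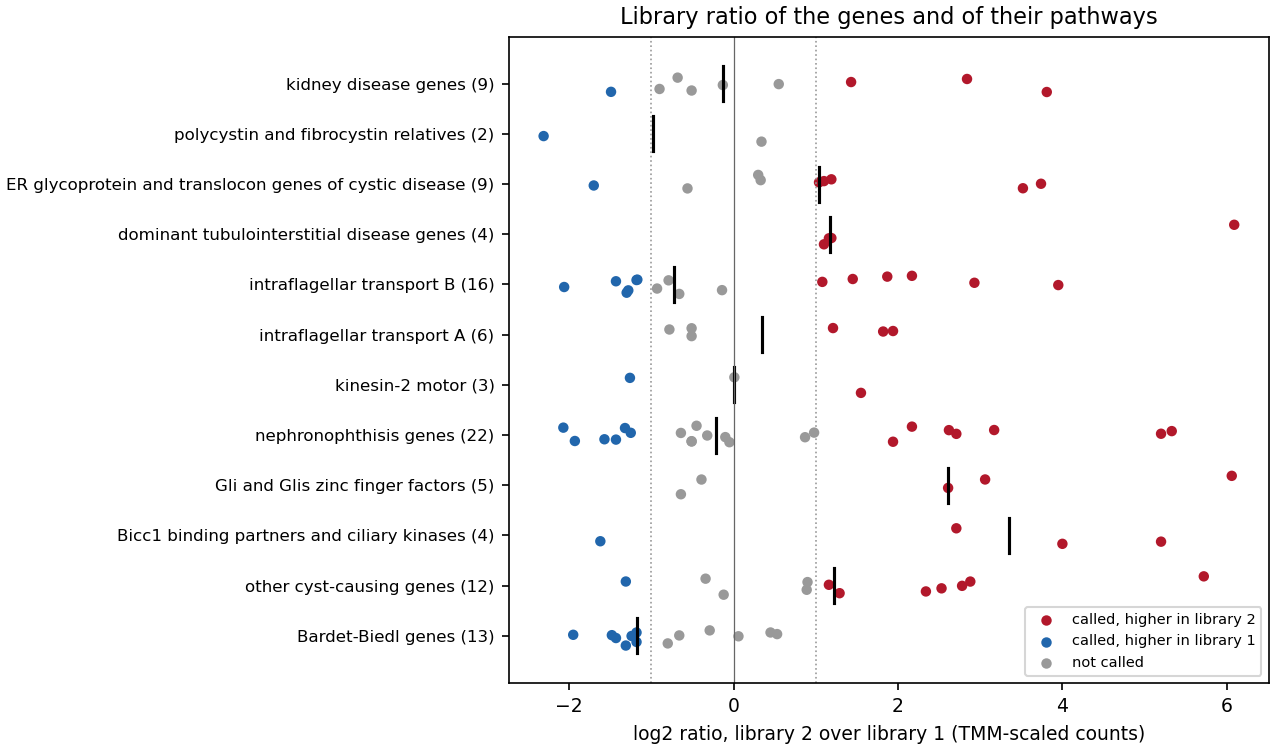
Log2 ratio of library 2 over library 1 on TMM-scaled counts for each tested gene (points), by list, with the number tested in brackets and the median as a black bar; red points were called higher in library 2, blue points higher in library 1, and dotted lines mark 2-fold. The dominant tubulointerstitial genes lie to the right (median 1.17), the Bardet-Biedl genes to the left (median -1.18), and the 9 kidney disease genes spread over both sides (median -0.13, and 0.77 with total counts).

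Transcript shares agreed between the libraries for some of the genes and not for others. Pkd1, Umod and Ganab each had 1 transcript row. Pkd2-201 held 96.9% of Pkd2 in library 2 and 96.8% in library 1, and Pkhd1-201 held 99.2% of Pkhd1 in library 2 and 99.4% in library 1. In the other 4 genes a further transcript reached 10% in at least 1 library.

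In Kif3a the leading transcript changed. Kif3a-203 held 67.9% in library 2 and 27.8% in library 1 (mean 47.8 ± 28.4, SD, n = 2), on 296 estimated counts in library 2 and 112 in library 1. Kif3a-201 held 27.1% in library 2 and 66.3% in library 1, on 83.6 estimated counts in library 2 and 190 in library 1. The order was the same in the posterior mean shares, where Kif3a-203 had 57.3% in library 2 and 24.0% in library 1. Kif3a-203 has 871 bases that Kif3a-201 lacks, an added exon of 9 bases and a longer 3′ end, and these bases are 45.1% GC. The exon lies at chr11:53590717-53590725 on the plus strand, inside the coding sequence. Both junctions are shown, with the exon in capitals and 30 bases on each side.
Kif3a with exon: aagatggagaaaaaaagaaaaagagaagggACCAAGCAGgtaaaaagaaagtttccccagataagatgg
Kif3a without exon: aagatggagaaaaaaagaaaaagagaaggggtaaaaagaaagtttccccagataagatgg
The estimate splits reads between transcripts that share most of their length, and no test was made on it.

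In Bicc1, Bicc1-203 held 80.5% in library 2 and 96.7% in library 1, and Bicc1-202 19.2% in library 2 and 2.88% in library 1, on 590 estimated counts in library 2 and 85.0 in library 1. Bicc1-202 has an added exon of 80 bases at chr10:70927715-70927794 on the minus strand and ends sooner, with a coding length of 2607 bases against 2931 in Bicc1-203. That exon is absent from Bicc1-203, and the other Bicc1 transcripts were not compared. In all, Bicc1-202 has 124 bases that Bicc1-203 lacks. The coding part of the exon, 53 bases at chr10:70927742-70927794, is shown with G and C in capitals.
Bicc1-202 exon: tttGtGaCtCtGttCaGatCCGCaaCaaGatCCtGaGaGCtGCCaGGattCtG
The 2550 bases found in Bicc1-203 and not in Bicc1-202 are 44.4% GC, and the whole transcripts are 48.8% GC for Bicc1-203 and 52.7% for Bicc1-202.

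In Glis2, Glis2-201 held 75.7% in library 2 and 100% in library 1, and Glis2-205, a transcript of 418 bases, held 16.5% in library 2 on 40.3 estimated counts and was listed at 0 in library 1. In Ift88, Ift88-201 held 86.2% in library 2 and 81.2% in library 1, and Ift88-203 held 10.4% in library 2 on 5.07 estimated counts and was listed at 0 in library 1. The short transcripts thus rest on few reads. Posterior mean shares were 74.7% in library 2 and 88.0% in library 1 for Glis2-201. For Ift88-201 they were 78.95% in library 2 and 74.56% in library 1.

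**Figure D5:**
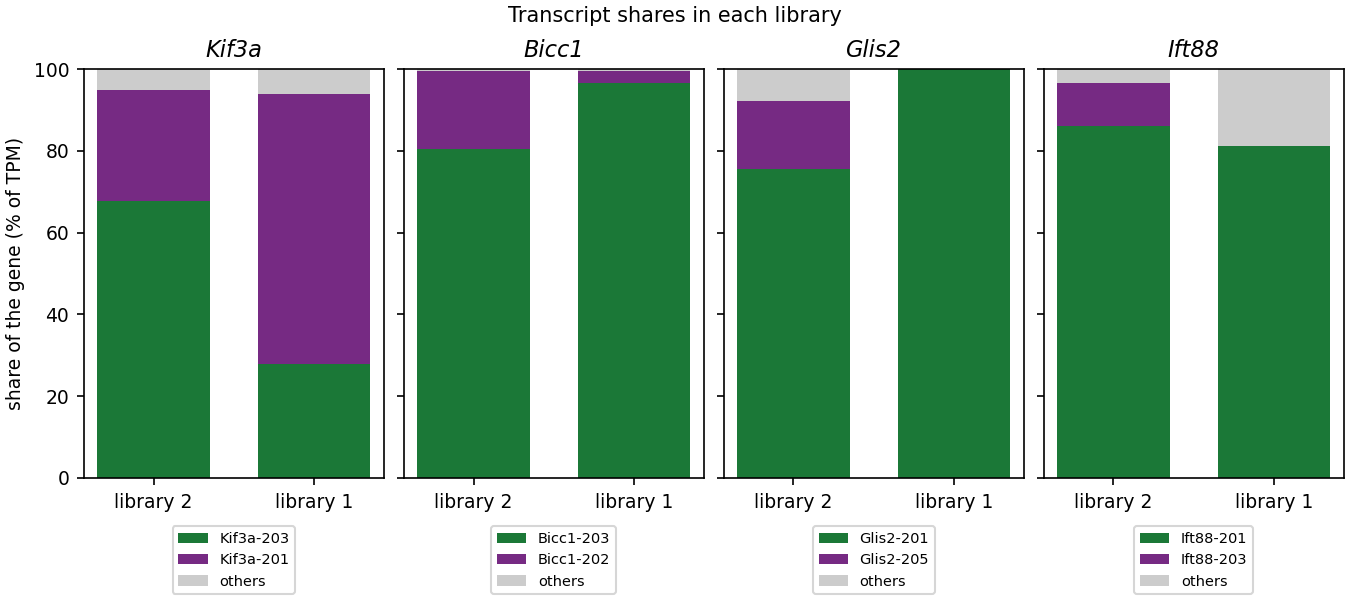
Share of each transcript in the TPM of its gene (%), library 2 left of library 1, for the 4 genes with more than 1 transcript at 10% or more in a library. The order of Kif3a-203 and Kif3a-201 differs between the libraries, Kif3a-203 holding 67.9% in library 2 and 27.8% in library 1, and the main transcript leads in both for Bicc1, Glis2 and Ift88.

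Exons of 6 of the genes overlap an exon of a gene on the opposite strand, taking the exons of all annotated transcripts of each gene. Counting by strand is not stated, so reads of the overlap cannot be told apart. Pkd1 shares 693 bases with Tsc2, which had 1615 counts in library 2 and 171 in library 1, and Glis2 shares 455 bases with Pam16, which had 393 counts in library 2 and 65 in library 1. The partners of Pkhd1, Ift88 and Bicc1 had no counts in either library. Umod shares 539 bases with Gm44588, which has no row in the tables. Shared sequence was searched with the leading transcript of each gene only. The longest stretch at 95% identity or more shared with another gene covered 11.4% of the transcript for Umod and less for the others. None was found for Ganab or Glis2, so the search did not find the Pam16 overlap in the leading Glis2 transcript.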

How the data were processed

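Polyadenylated RNA of 1 kidney sample was sequenced as 2 libraries, which form 1 group. Per the text beside them, the authors deposited tables per gene and per transcript, made on mm10 with release M4 of the annotation. For the aligner and quantifier, names were not given in the sources used here. Per the file headers, the authors deposited expected counts (estimated reads per gene, not normalized), TPM, FPKM (not used further), the share of each transcript as a percent, and the bounds of a TPM credibility interval, a signal whose level is not stated.

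The values below were computed from these. Of the gene rows, 42462 (98%) matched a symbol in GENCODE M21, which also gave coordinates, sequences and GC content, and 26345 other rows, at 0 in both libraries, were left out. Expected counts were rounded and scaled by TMM (edgeR 4.0.16, R 4.3.3). A quasi-likelihood model has no residual degrees of freedom here, so each gene with 10 or more counts in the libraries together was tested by an exact binomial test, two-sided and conditional on its total (scipy 1.17.1 under Python 3.11.15), and Benjamini-Hochberg adjustment ran over all of them. Calls needed an adjusted p under 0.05 and a log2 ratio of at least 1 in either direction, with a prior count of 0.5. The trend on GC content came from locally weighted regression (statsmodels 0.14.6, span 20%) over genes that had 100 or more counts and a transcript within 10% of the reference length. Shared sequence was searched with blastn 2.17.0. The test was checked on simulated counts drawn with counting error only, as the test itself assumes. That check cannot show how the test behaves where technical libraries differ by more than counting error. Intervals and the floor of 3 counts cover counting error only.

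The genes, the 11 pathway lists and the 8 marker lists were chosen with earlier results of these data known. The text names all 9 genes, the 3 most abundant of each pathway list and the highest of each marker list, genes under 1 TPM in both libraries, and transcripts at 10% or more. Some genes of the lists that this rule selects are not reported here. Prkcsh, Ren1, Muc1, Anks3, Anks6, Nek8, Pkhd1l1, Trim32, Alg5, Mogs, Ift27, Lrp5, Egf, Mylpf, Tsc2 and Pam16 were named for a count or a partner after their values were seen. Alternatives were DESeq2 1.42.0 size factors, total counts, upper quartile scaling, posterior means, other count minimums, a prior count of 2, the GC trend removed, and mitochondrial genes and copies (44 genes, 7 of them copies on chromosome 1) left out.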

Additional observations from a re-analysis of the deposited data

How the results depend on the processing

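With the GC trend removed, 2688 of 11508 genes, 1 of the 9 kidney disease genes and 11 of 80 pathway genes were called. With TMM alone the counts were 9403 of 15553, 4 of 9 and 58 of 89. The sets tested differ, since the trend needed 100 or more counts and a GC value. At 100 or more counts without removal, 7569 of 12048 genes and 54 of 83 pathway genes were called. The counts for all genes, kidney disease genes and pathway genes stayed within 1.5 times of the TMM counts under each of the other 7 settings tried. With total counts the log2 ratios of Pkd2, Pkhd1, Kif3a and Bicc1 were 0.0047, 0.23, 0.77 and 0.40, above 0 in place of below it, since every ratio moves up by 0.90. With the GC trend removed Kif3a stood at 0.34 and Glis2 at -1.04, both on the other side of 0, and Pkd1 (0.47), Umod (0.73) and Ift88 (-0.38) were no longer called; the cause was not tested. With total counts Ift88 (-0.58) was no longer called and Ganab (1.46) was. The other 70 ratios tried kept their direction and call. Leaving out mitochondrial genes moved the mean TPM of 6 of the 9 genes by more than 1 SD. Posterior means moved the mean leading transcript share by more than 1 SD in Ift88 (83.69% to 76.75%) and Pkhd1 (99.29% to 97.47%). No paired analysis was possible because the libraries form 1 group. Pkd1 had 81 counts in library 1, which limits the precision of its ratio (95% interval 3.50 to 4.16). Library 1 held more expected counts in total, but its library size after TMM scaling was the smaller, at 20656390 against 28334158 in library 2.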
